A study of Mus musculus with 13 samples.

Results

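Cortical RNA from mice with a single copy of Grn was set against that of wild-type mice, and every gene in that comparison is described. The genes are the rows of the authors' deposited table for Grn+/- against wild type, without the rows for reads in no gene and for ambiguous reads. This left 13482 genes, of 17562 listed in the widest of the study's 3 tables. The wild-type group (Grn+/+) held 5 mice and the heterozygous group (Grn+/-) held 4 mice, all of them male and 18 months old, with cortex as the tissue. A group of 4 male mice of the same age (Grn-/-; GRNtg) has no mouse Grn and carries a human GRN transgene. Its tables are used only as context, but its mice may enter the values below. The log2 fold changes of the 3 comparisons add up to within 2.3e-16, as a joint fit of all 13 mice would give. In such a fit, the Grn-/-; GRNtg mice bear on the normalization, mean counts, SEs and p-values of Grn+/- against wild type. The labels give no strain, litter or batch, and neither the targeted allele nor the promoter of the transgene. The labels number the mice singly, so the authors' errors were read as spread between mice. The tables hold no values per mouse and no depth per library, so each value below is the authors' log2 fold change, Grn+/- over wild type, with its standard error (SE). A gene was called where the adjusted p of the authors' DESeq2 Wald test (Benjamini-Hochberg) was under 0.05. "Rose" and "fell" are used only of called genes.

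Grn encodes progranulin, a secreted glycoprotein that is also carried to lysosomes, where it is cut into granulins. Sortilin (Sort1) takes it up from outside the cell, and prosaposin (Psap) ferries it to lysosomes by a separate route. In the brain, microglia and neurons make it. In people, mutations in a single copy lead to frontotemporal dementia, and loss of both copies to a lysosomal storage disease of neurons.

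Grn itself fell to 63.6% of the wild-type level in the authors' deposited table, a log2 fold change of -0.65 ± 0.077 (adjusted p = 2.92e-13). The 95% interval ran from -0.80 to -0.50 on the log2 scale. Grn lies at chr11:102430507-102436809 (RefSeq, GRCm38.p6) and has 13 exons in its longest coding transcript. In Grn-/-; GRNtg against the same wild-type mice, the log2 fold change of mouse Grn was -2.02 ± 0.081. That value does not show full absence of counts on Grn. Whether reads of the human transgene, transcript left from the targeted allele or shrinkage of fold changes had a part in it was not tested. The last 2 of these bear on the Grn+/- value as well. Of the 17 measured genes that encode progranulin, its receptors and its partners, 3 passed the test (17.6%, beside 6.8% over all genes). Grn itself is 1 of these 3, so the share counts the gene that the genotype targets. Psap rose by 0.15 ± 0.042, and Tnfrsf25, which encodes death receptor 3, fell by 0.58 ± 0.136. Sort1 stood at 0.06 ± 0.060 and did not pass. Nor did Tmem106b, a lysosomal membrane gene in which variants modify the human disease, at -0.14 ± 0.082. The protease genes Ctsb (0.18 ± 0.069, adjusted p = 0.099) and Ctsd (0.03 ± 0.049) did not pass either.

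Across all genes, 917 (6.8%) were called: 309 rose (2.29%) and 608 fell (4.51%). The median gene was at 0.01 on the log2 scale, and 52.4% of genes were above 0. Genes that fell had the larger changes. Their median was -0.35, or 78.6% of wild type, and 82 of them fell by 0.5 or more. Genes that rose had a median of 0.24, or 118% of wild type, and 4 rose by 0.5 or more. Of the 12565 genes not called, 96.4% had a 95% interval inside -0.5 to 0.5. No SE exceeded 0.138 and whether fold changes were shrunk is not stated, so this share cannot show that larger changes were absent. SEs could be small even at low counts, as for C3 (0.069 at a mean normalized count of 59) and Drd2 (0.080 at 67). If fold changes were shrunk, as such SEs may reflect, the sizes, percents of wild type and intervals given here are compressed towards 0. At an unadjusted p under 0.05, 2722 of the 13482 genes passed. Counts of list members at that threshold below are to be read beside it and are no excess by themselves. The Wald statistic was wider over all genes than a standard normal, with a robust spread of 1.49. When it was divided by that spread, 3 genes still passed, and these were Grn, Dok6 and Pvrl1. Every other call below is lost at that setting.

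**Figure D1:**
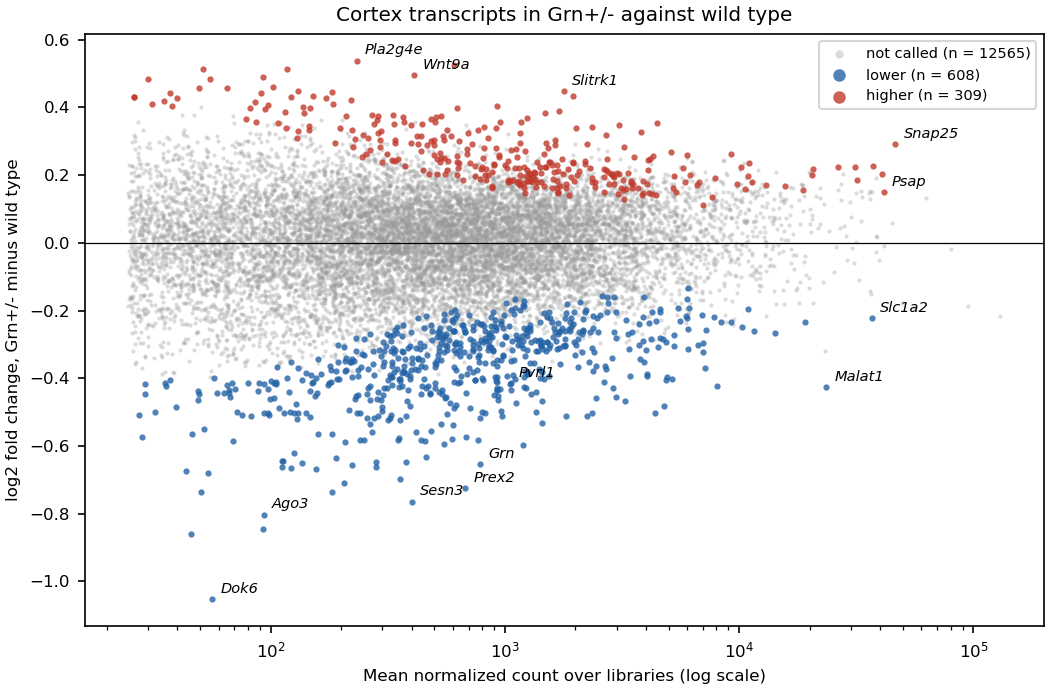
Log2 fold change of Grn+/- over wild type (y axis) against mean normalized count over libraries (x axis, log scale), with 1 point per gene. The 608 genes called lower (blue) reach further from 0 than the 309 called higher (red), and Dok6 is the lowest point at -1.05.

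Calls followed the length of the transcript. Genes that fell had a median length of 6627.5 bases for the longest coding transcript. Genes that rose had 2353 bases, and all genes 3318 bases. In the tenth of genes with the longest transcripts, 21.2% fell and 0.612% rose. In the tenth with the shortest, 0.536% fell and 3.52% rose. Spearman's rho between length and log2 fold change was -0.365 across 13065 genes, which share libraries and are not independent replicates. It was -0.229 for the span of the gene on the chromosome and -0.218 for the length of the 3′ untranslated region. Genes that fell also had less GC in the transcript (46.1%) than all genes (50.5%). In the authors' deposited table for Grn-/-; GRNtg against the same wild-type mice, 148 of the 1307 genes with the longest transcripts were lower and 5 higher. For Grn-/-; GRNtg against Grn+/-, 1 was lower and 4 were higher. Reads in no gene, 17.01% of mean normalized counts, also fell in Grn+/- by 0.22 ± 0.052 (adjusted p = 0.00193). When the running median over transcript length was subtracted from the Wald statistic, 449 genes were called. Of these, 375 were among the 917, and 0 changed direction. Where this ends a call named below, the gene or the count left is given. The part of length and of the reads in no gene in the values of single genes was not tested.

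**Figure D2:**
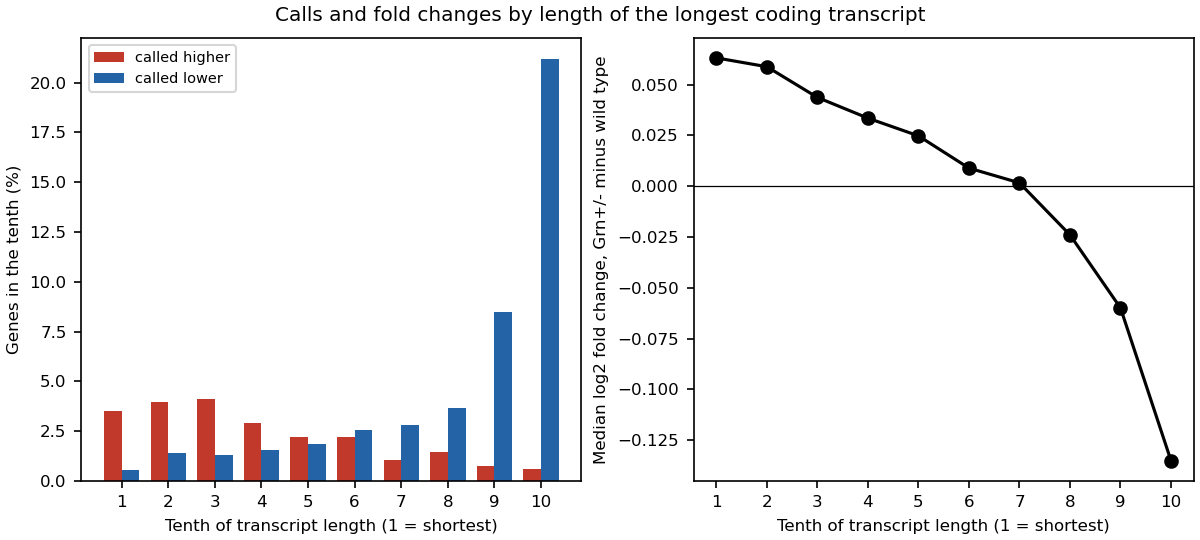
Genes in 10 equal groups by length of the longest coding transcript (x axis, 1 is the shortest). Left, the percent of genes called higher (red) or lower (blue); right, the median log2 fold change of Grn+/- over wild type. The share called lower is 0.536% in the shortest group and 21.2% in the longest, and the median goes from 0.06 to -0.14.

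The gene with the largest change was Dok6, an adaptor of the Ret and TrkC receptors, which fell to 48.2% of wild type (-1.05 ± 0.135). Its mean normalized count was 56. Among called genes with a mean normalized count of at least 100, the 12 that fell most lay between -0.76 and -0.65. Sesn3, which encodes an inhibitor of mTORC1 signalling, was at -0.76 ± 0.134. Lmbrd2 was at -0.73 ± 0.138 and Prex2, a Rac exchange factor, at -0.73 ± 0.119. Cbl, an E3 ubiquitin ligase for receptor tyrosine kinases, stood at -0.71 ± 0.137. Amer2 (-0.70), Zbed6 (-0.67), Fam135b (-0.67), Fam46a (-0.66), Zdbf2 (-0.66) and Klhl11 (-0.66) came next, then Grn. The copper transporter gene Atp7a ended the 12 at -0.65 ± 0.128. Grn had the smallest SE of these 12 genes. Cbl and Fam135b were not called once the length trend was removed.

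Changes upward were smaller. With the same minimum on the mean count, the 12 genes that rose most lay between 0.43 and 0.54. Pla2g4e, a phospholipase A2 gene, led at 0.54 ± 0.127, ahead of the kinase gene Hunk (0.53 ± 0.129) and Myadml2 (0.51 ± 0.121). Wnt9a, a Wnt ligand, rose by 0.50 ± 0.099. Slitrk1, a synaptic adhesion gene, rose by 0.45 ± 0.079 at a mean normalized count of 1784. The others were Usp43 (0.46), Pld5 (0.45), Snx7 (0.45), Dact2 (0.43), 9330133O14Rik (0.43), Cbr4 (0.43) and Klhl40 (0.43).

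**Figure D3:**
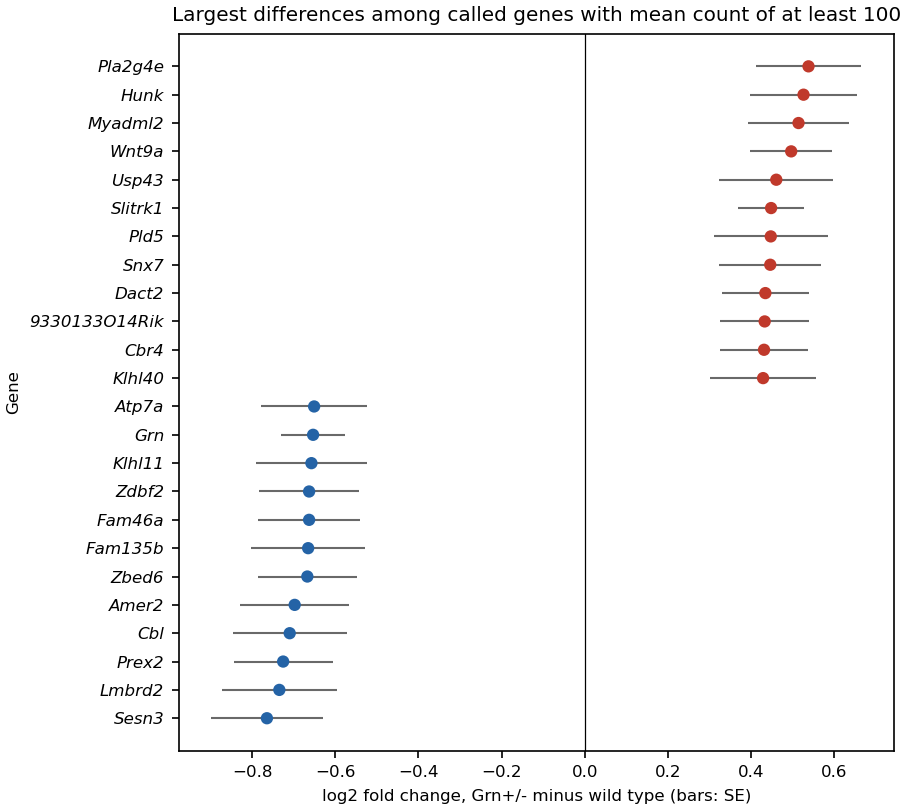
Log2 fold change of Grn+/- over wild type (x axis) for the 12 genes that rose most and the 12 that fell most among called genes with a mean normalized count of at least 100. Points are the authors' fold changes and bars their SE; Sesn3 is lowest at -0.76 and Pla2g4e highest at 0.54.

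Genes switched on by neuronal activity held 8 falls and 1 rise. Of 25 measured immediate early transcription factors, 6 fell (24%, beside 4.51% of all genes), 0 rose and 21 lay below 0, with a median of -0.22 beside 0.01 over all genes. Klf4 (-0.58 ± 0.135), Nr4a3 (-0.58 ± 0.137), Atf3 (-0.57 ± 0.130, mean normalized count 28) and Egr4 (-0.47 ± 0.129) were among those that fell. Srf, the serum response factor that itself drives many immediate early genes, fell by 0.25 ± 0.073. The classical markers did not pass: Egr1 was at -0.23 ± 0.135, Fos at -0.17 ± 0.129 and Npas4 at -0.07 ± 0.130. Removing the transcript-length trend left 6 members called lower and a median of -0.21. Among 28 effector genes of activity, 2 fell, 1 rose and 23 were below 0, with a median of -0.23. Homer1, a postsynaptic scaffold gene with a short activity-induced form, fell by 0.51 ± 0.111, and the phosphatase gene Dusp4 by 0.46 ± 0.125. Values are per gene, so the short form of Homer1 cannot be told from its other forms. The neuritin gene Nrn1 rose by 0.28 ± 0.067. Bdnf (-0.27 ± 0.094, adjusted p = 0.056) and Arc (-0.23 ± 0.129) did not pass.

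Promoters of both kinds of gene are shown for the elements that activity factors read: the TGACG core of the cAMP response element, bound by CREB, and the CArG box, bound by SRF. Both strands of the 300 bases from 250 before to 50 after each start site (RefSeq, GRCm38.p6) were searched. A gene counted as matched if the window of any of its start sites held the element, so genes with many start sites had more chances. TGACG was found in 16 of 21 immediate early genes (76.2%) and in 14 of 20 effector genes (70%). The share was 35.2% of the 10712 tested genes with a promoter. The CArG box was found in 2 of 21 immediate early genes (9.52%), in 1 of 20 effector genes (5%) and in 1.55% of those 10712. Homer1 had 3 TGACG matches (chr13:93303687-93303756, plus strand) and Srf 2 CArG boxes (chr17:46556176-46556262, minus strand), in capitals here.
Homer1: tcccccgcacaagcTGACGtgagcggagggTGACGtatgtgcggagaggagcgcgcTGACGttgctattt
Srf: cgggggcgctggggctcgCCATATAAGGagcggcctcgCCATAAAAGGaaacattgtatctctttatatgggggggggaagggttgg
The Homer1 stretch ends at the base before the start site and the Srf stretch 14 bases before it. Immediate early genes with a TGACG match had a median log2 fold change of -0.24 (16 genes) and those without one -0.10 (5 genes). Among effectors the order was the other way, at -0.18 with (14 genes) and -0.24 without (6 genes). These are descriptions of letters in a window, with no test.

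Chaperones of the endoplasmic reticulum, which fold secreted proteins such as progranulin, held 4 genes that fell (14.3%, beside 4.51% of all genes) and 0 that rose among 28 measured. Creld2 fell by 0.39 ± 0.091 and Pdia4, a disulfide isomerase gene, by 0.32 ± 0.085. Hspa5, which encodes the major chaperone BiP, fell by 0.28 ± 0.094, and the cochaperone gene Dnajc3 by 0.23 ± 0.070. The list's median was -0.06, and Calr stood at -0.04 ± 0.065. Xbp1, the transcription factor whose spliced form induces these chaperones, fell by 0.29 ± 0.058 (adjusted p = 9.48e-05). It was the only called gene among 18 measured regulators of the unfolded protein response: Atf4 was at 0.08 ± 0.110 and Ddit3 at -0.15 ± 0.081. With the transcript-length trend removed, 3 of the chaperone genes were called lower, and Hspa5 and Dnajc3 were not among them. Of 33 cytosolic heat shock chaperone genes, Chordc1 alone passed (-0.26 ± 0.087), though not without the length trend.

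The ER stress response element, CCAAT and CCACG with 9 bases between them, is the site at which ATF6 and NF-Y bind chaperone promoters. It was found in 9 of the 23 chaperone genes with a promoter (39.1%) and in 17 of the 10712 tested genes (0.159%). Its match, in capitals, is shown for the 3 genes that fell and held it: Hspa5 (chr2:34772020-34772049), Dnajc3 (chr14:118937801-118937931) and Creld2 (chr15:88819515-88819645), all on the plus strand.
Hspa5: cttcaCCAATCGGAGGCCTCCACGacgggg
Dnajc3: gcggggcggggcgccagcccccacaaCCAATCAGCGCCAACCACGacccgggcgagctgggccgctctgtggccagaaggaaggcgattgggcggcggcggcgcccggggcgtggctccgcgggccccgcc
Creld2: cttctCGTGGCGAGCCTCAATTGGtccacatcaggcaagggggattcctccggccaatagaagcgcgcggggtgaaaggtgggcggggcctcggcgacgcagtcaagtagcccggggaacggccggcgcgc
The match began 65 bases before the start site in Hspa5, 105 in Dnajc3 and 126 in Creld2, where it reads on the reverse strand. Of the 9 chaperone genes with the element, 8 were below 0 with a median of -0.13. Of the 14 without it, 7 were below 0 with a median of -0.01. The Hspa5 stretch is kept to 30 bases around its match.

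**Figure D4:**
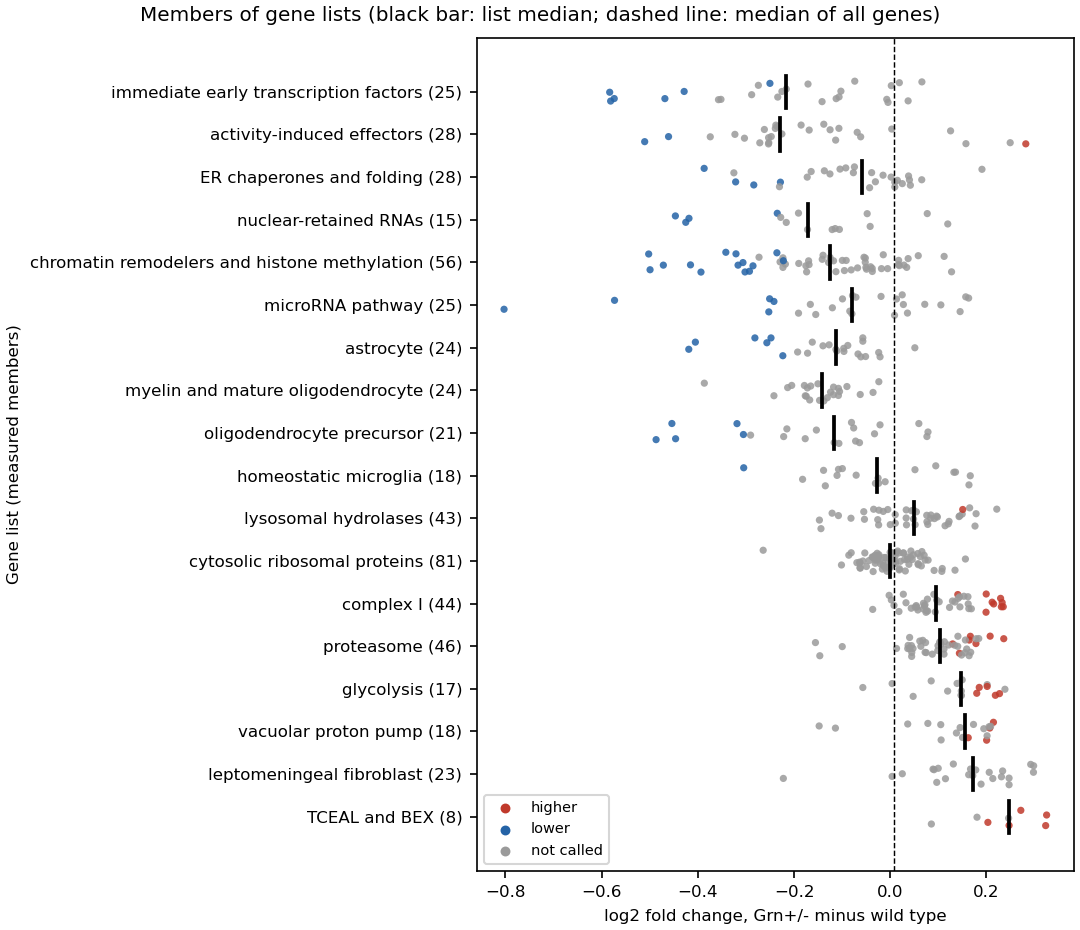
Log2 fold change of Grn+/- over wild type (x axis) of each measured member of 18 gene lists (y axis, members in parentheses), called higher in red, called lower in blue and not called in grey. Black bars are list medians, from -0.23 in activity-induced effectors to 0.25 in the TCEAL and BEX genes; the dashed line is the median of all genes, 0.01.

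Genes that run chromatin and RNA processing held more falls than rises. Among 56 chromatin remodelers and histone methylation genes, 14 fell (25%, beside 4.51% of all genes), 0 rose and 47 were below 0. The histone H3 lysine 4 methyltransferase genes Kmt2a (-0.50 ± 0.103) and Kmt2c (-0.50 ± 0.091) led, with the remodeler genes Chd9 (-0.47 ± 0.096), Baz2b (-0.42 ± 0.089) and Chd2 (-0.29 ± 0.062). The list's median transcript was 8.18 kb long, beside 3.32 kb for all genes. Its median log2 fold change was -0.12 as deposited and -0.01 with the transcript-length trend removed, when 2 members were called lower. Among 42 splicing kinases and modulators, 6 fell and 1 rose. Tra2a, a splicing activator gene, fell by 0.43 ± 0.066 (adjusted p = 4.40e-07), Son by 0.39 ± 0.088 and Nktr by 0.39 ± 0.071, while Sf3b2 rose by 0.15 ± 0.042. In 31 genes for SR proteins and hnRNPs, 3 fell: Srsf6 (-0.27 ± 0.059), Srsf7 (-0.22 ± 0.056) and Hnrnpll (-0.18 ± 0.060). Of 49 genes for elongation factors and Mediator, 6 fell, led by the cyclin T2 gene Ccnt2 (-0.45 ± 0.074). Removing the length trend left 3 splicing modulators and 3 elongation genes called lower.

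In genes of microRNA silencing and RNA decay, falls outnumbered rises. In the microRNA pathway, 5 of 25 genes fell (20%, beside 4.51% of all genes) and 0 rose. The Argonaute genes Ago3 (-0.80 ± 0.137, mean normalized count 93) and Ago2 (-0.57 ± 0.115) fell most, before Dicer1 (-0.25 ± 0.085), Tnrc6b (-0.25 ± 0.065) and Cnot6 (-0.24 ± 0.074). The median of the pathway moved from -0.08 to 0.00 when the transcript-length trend was removed, and 1 member was then called. Of 28 genes for nonsense-mediated decay and 3′ end formation, 3 fell and 1 rose (14.3% called, beside 6.8% over all genes). The exonuclease gene Xrn1 was at -0.62 ± 0.136, the decay kinase gene Smg1 at -0.51 ± 0.092 and Cpsf6 at -0.29 ± 0.070, while Cpsf2 was at 0.20 ± 0.067. Xrn1 and Cpsf6 were not called once the length trend was removed. Among RNAs that stay in the nucleus, 4 of 15 fell (26.7%, beside 4.51% of all genes) and 13 were below 0. Malat1 fell by 0.43 ± 0.109, Mirg by 0.45 ± 0.086, Kcnq1ot1 by 0.42 ± 0.101 and Rian by 0.23 ± 0.066. Meg3, with the highest mean normalized count of any gene (130109), was at -0.22 ± 0.078 and did not pass (adjusted p = 0.070). All 4 calls were kept with the transcript-length trend removed, but 1 of the 15 RNAs had a coding transcript length, so the trend was not subtracted from the others.

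Among astrocyte markers, 6 fell (25%, beside 4.51% of all genes) and 0 rose. In bulk cortex, fewer cells of a type and less RNA per cell cannot be told apart. Of the 24 measured, 23 were below 0, with a median of -0.11. Ppp1r3c, a glycogen-targeting subunit gene, fell by 0.41 ± 0.113 and Gli3 by 0.42 ± 0.119, and the main glutamate transporter gene Slc1a2 fell by 0.22 ± 0.073. S1pr1 fell by 0.28 ± 0.080 and the bicarbonate transporter gene Slc4a4 by 0.25 ± 0.080. Aqp4 was at -0.09 ± 0.106. Gfap, the marker of reactive astrocytes, was at 0.04 ± 0.137. Of 19 reactive astrocyte genes, 1 was called (5.26%, beside 6.8% over all genes). It was Nes, which fell (-0.46 ± 0.129) and which removal of the length trend left uncalled. Without the transcript-length trend, 3 astrocyte markers were called lower and the median was -0.11.

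The oligodendrocyte lineage gave calls in its precursors. Of 21 markers of oligodendrocyte precursors, 5 fell (23.8%, beside 4.51% of all genes) and 0 rose. Gpr17, a receptor gene of cells that are about to differentiate, fell by 0.49 ± 0.094, the phosphatase receptor gene Ptprz1 by 0.45 ± 0.090 and the proteoglycan gene Vcan by 0.45 ± 0.108. Itpr2 fell by 0.32 ± 0.089 and Sox6 by 0.31 ± 0.087. Pdgfra, the defining receptor of the precursors, was at -0.15 ± 0.082 and did not pass. Of the precursor markers, 2 were called lower once the transcript-length trend was removed. All 24 myelin and mature oligodendrocyte genes were below 0, from -0.39 to -0.02 with a median of -0.14, but none passed the DESeq2 test and 1 had an unadjusted p under 0.05. Mbp was at -0.18 ± 0.137 and Ugt8a, an enzyme gene of myelin lipid synthesis, at -0.39 ± 0.137 (adjusted p = 0.061). SEs of myelin genes, with a median of 0.137, were close to the highest SE of any gene (0.138).

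Called genes of glycolysis, the TCA cycle and complex I all rose, though most members of each list did not pass. Of 17 glycolysis genes, 5 rose (29.4%, beside 2.29% of all genes), 0 fell and 16 were above 0, with a median of 0.15. Aldoa rose by 0.23 ± 0.068, Pgk1 by 0.22 ± 0.065, Gapdh by 0.20 ± 0.064, Pkm by 0.19 ± 0.059 and Pfkm by 0.18 ± 0.051. All 24 genes of the TCA cycle and pyruvate entry were above 0, and 3 rose: Mdh1 (0.23 ± 0.066), Idh3a (0.20 ± 0.069) and Sdhd (0.18 ± 0.060). Of 44 complex I genes, which encode the NADH dehydrogenase of mitochondria, 9 rose (20.5%), 0 fell and 42 were above 0. Ndufa9 rose by 0.24 ± 0.055, Ndufv2 by 0.23 ± 0.056 and Ndufb5 by 0.22 ± 0.053. In ATP synthase 3 of 17 genes rose, in complex III 1 of 12 (Uqcrc2, 0.19 ± 0.061) and in complex IV 0 of 28, where 4 had an unadjusted DESeq2 p under 0.05. In the mitochondrial ribosome, 71 of 77 genes were above 0, and Mrps27 alone rose (0.20 ± 0.068). The cytosolic ribosomal proteins had a median of 0.00 and 0 called of 81 by DESeq2, with 0 at an unadjusted p under 0.05. With the transcript-length trend removed, 1 glycolysis gene, 0 TCA genes and 4 complex I genes were called higher. The medians were then 0.11, 0.08 and 0.04. Subtracting the median Wald statistic left 1 TCA gene called, Mrps27 no longer among the calls.

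Called genes of the proteasome and the proton pump also rose, and again most members did not pass. Of 46 proteasome genes, 7 rose (15.2%, beside 2.29% of all genes), 0 fell and 43 were above 0. Psmf1, an inhibitor gene of the proteasome, rose by 0.24 ± 0.067, and the regulatory particle genes Psmd13, Psmc4, Psmd2 and Psmc3 by 0.18, 0.17, 0.14 and 0.13. Of 18 genes for the vacuolar proton pump, which acidifies lysosomes and synaptic vesicles, 4 rose and 0 fell. These were Atp6v1c1 (0.21 ± 0.072), Atp6v1d (0.21 ± 0.068), Atp6v1e1 (0.20 ± 0.058) and Atp6v1f (0.16 ± 0.055), all of the cytosolic V1 part. Without the transcript-length trend, 2 proteasome genes and 0 pump genes were called, and subtracting the median Wald statistic left 2 pump genes. The small X-linked TCEAL and BEX family had 5 of 8 genes higher and all 8 above 0, with a median of 0.25. Tceal1 (0.33 ± 0.097) and Tceal5 (0.32 ± 0.066) rose most, then Tceal6 (0.27 ± 0.074), Bex2 (0.25 ± 0.081) and Tceal3 (0.20 ± 0.053). Of these, 2 were called with the trend removed, when the median was 0.20. Members of the family are close copies of each other, and reads shared between them could have been split in counting. The cholesterol synthesis genes had a median of 0.12, and Fdft1, which encodes squalene synthase, was at 0.18 ± 0.062 and did not pass (adjusted p = 0.055).

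Lysosomal and autophagy genes held few calls. Of 43 lysosomal hydrolases and cofactors, Psap alone passed. Of 37 genes for the lysosomal membrane and its regulators, 2 rose, Rraga (0.25 ± 0.074) and Cln6 (0.28 ± 0.096), and Lamp1 was at 0.03 ± 0.054. Of 37 autophagy genes, 3 rose: Uvrag (0.23 ± 0.066), Sqstm1 (0.17 ± 0.052) and Gabarapl1 (0.17 ± 0.051). All of these calls were rises. The shares, 2.33%, 5.41% and 8.11%, stand beside 2.29% of all genes that rose and 6.8% called in either direction. Rraga, Cln6, Sqstm1 and Gabarapl1 were not called without the length trend. The E-box CACGTG, which lies inside the longer CLEAR element that TFEB binds, was searched in the same way. It was found in 12 of 35 hydrolase genes with a promoter (34.3%) and in 11.7% of such tested genes. The whole CLEAR element was found in 0 of those 35.

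Microglial genes gave few calls as well, while complement genes gave more. Of 18 homeostatic microglia markers, 1 fell (5.56%, beside 4.51% of all genes), Tgfbr1 (-0.30 ± 0.099), which was not called without the length trend. P2ry12 was at -0.13 ± 0.094, Tmem119 at -0.18 ± 0.095 and Cx3cr1 at -0.03 ± 0.093. None of 19 disease-associated microglia genes passed the DESeq2 test, and 3 had an unadjusted p under 0.05. Trem2 was at 0.05 ± 0.089, Apoe at 0.02 ± 0.090 and Tyrobp at -0.03 ± 0.095. Gpnmb was at 0.27 ± 0.138, with a 95% interval from 0.00 to 0.54 and a mean normalized count of 74. None of 28 interferon response genes and none of 20 antigen presentation genes passed the DESeq2 test, with 2 and 0 at an unadjusted p under 0.05. Of 21 complement genes, 4 fell (19.0%, beside 4.51% of all genes). Cfp, the properdin gene, was at -0.46 ± 0.105, Csmd3 at -0.43 ± 0.121, C4a at -0.41 ± 0.132 and Csmd1 at -0.39 ± 0.082. The CSMD genes encode complement inhibitors of neurons. C4a and its near copy C4b can share reads. C1qa was at -0.13 ± 0.091. Removing the length trend left Cfp as the only complement call.

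Of 30 measured genes linked to frontotemporal dementia or ALS, Grn aside, 1 rose and 3 fell (13.3% called, beside 6.8% over all genes). Nek1, a kinase gene, fell by 0.38 ± 0.078 and Tia1, a stress granule gene, by 0.26 ± 0.070, while Sqstm1 rose. Mapt was at 0.03 ± 0.042 and Vcp at 0.12 ± 0.058.

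Synaptic genes held calls in both directions. Of 43 genes for vesicle release, 3 passed (6.98%, beside 6.8% over all genes): Snap25 (0.29 ± 0.097) and Syp (0.22 ± 0.075) rose and Unc13c fell (-0.58 ± 0.131). Of 41 postsynaptic scaffold genes, 5 fell and Slitrk1 rose (14.6% called). Besides Homer1, the SHANK genes Shank2 (-0.34 ± 0.080) and Shank1 (-0.26 ± 0.079) fell, and Dlg2 fell by 0.17 ± 0.053. Of 27 glutamate receptor genes, the NMDA receptor subunits Grin2b (-0.55 ± 0.131) and Grin2a (-0.41 ± 0.136) fell and Grid1 rose (0.20 ± 0.064). The obligate NMDA subunit gene Grin1 was at 0.11 ± 0.065 and Gria1 at 0.06 ± 0.105. None of 14 GABA receptor genes passed the DESeq2 test, and 3 had an unadjusted p under 0.05 (2722 of 13482 over all genes). With the transcript-length trend removed, Grin2a and Grin2b were no longer called, and nor were Snap25, Syp, Unc13c, Shank1, Shank2 and Dlg2. Snap25 and Syp were also lost when the median Wald statistic was subtracted. Of 27 genes for neuropeptides, granins and related receptors or ligands, 4 rose, and none of these 4 is a classical neuropeptide gene. They were the nociceptin receptor gene Oprl1 (0.33 ± 0.069), the neurexophilin gene Nxph1 (0.32 ± 0.081), and the granin genes Chga (0.25 ± 0.081) and Chgb (0.20 ± 0.053). Chga was not called without the length trend.

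Adhesion and growth factor signalling held 2 of the 3 calls that remained under the wider spread. In 10 nectin and related genes, 3 were called (30%, beside 6.8% over all genes). Pvrl1, which encodes nectin-1, fell by 0.42 ± 0.056 (adjusted p = 5.36e-10). Mllt4, which encodes the nectin-binding protein afadin, fell by 0.26 ± 0.077, and Pvrl4 rose by 0.34 ± 0.115, but neither was called without the length trend. In a list of 23 genes for neurotrophin and GDNF signalling and related adaptors, 3 fell (13%, beside 4.51% of all genes) and 0 rose. These were Dok6, Shc3 (-0.48 ± 0.106) and Dok3 (-0.59 ± 0.115). Dok3 is a family relative of Dok6, and a part in these pathways is not implied. All 3 encode adaptor proteins, and all 3 were called with the transcript-length trend removed.

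Clock genes went both ways, with 4 higher and 2 lower of 22 (27.3% called, beside 6.8% over all genes), while 17 of the 22 were below 0 and the median was -0.08. Dbp (0.39 ± 0.097) and Nr1d1 (0.35 ± 0.090), outputs that CLOCK and BMAL1 drive, rose, as did Rorb (0.37 ± 0.127). Per2 (-0.53 ± 0.126) and Clock (-0.35 ± 0.098) fell, Clock no longer so without the length trend. Arntl, which encodes BMAL1, was at -0.15 ± 0.079 and Per1 at -0.23 ± 0.128. Subtracting the median Wald statistic left 2 genes higher and 2 lower.

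Markers of cortical neurons were well measured. Slc17a7, the main vesicular glutamate transporter gene of cortex, had a mean normalized count of 36092 and a log2 fold change of 0.13 ± 0.099. Of 35 excitatory and layer markers, Rorb, Emx1 (0.36 ± 0.115) and Pcp4 (0.34 ± 0.108) rose and Emx2 fell (-0.33 ± 0.106). This is 11.4% called, beside 6.8% over all genes. Emx1 and Pcp4 were not called without the length trend. Of 30 interneuron genes, Sox6 alone passed (3.33%), though not without the length trend, and Gad1 was at 0.20 ± 0.078 (adjusted p = 0.088). Markers of tissue around the cortex gave no calls. None of 20 striatal and 15 hippocampal or thalamic markers passed the DESeq2 test, with 0 and 4 at an unadjusted p under 0.05. Of 14 choroid plexus markers 3 were measured, and of 14 blood markers 1, with 0 called and, at an unadjusted p under 0.05, 0 and 1. Leptomeningeal fibroblast genes were above 0 in 22 of 23 cases, with a median of 0.17, but none passed the DESeq2 test and 3 had an unadjusted p under 0.05. Islr was at 0.29 ± 0.137, Igf2 at 0.17 ± 0.133 and Col1a2 at 0.10 ± 0.137. None of 24 endothelial and 16 mural markers passed either (3 and 0 at an unadjusted p under 0.05), and Cldn5 was at -0.20 ± 0.097.

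Shares called in the large families stood on both sides of the 6.8% over all genes. Of 329 Zfp zinc finger genes, 3 rose and 19 fell (6.69% called), led by Zfp369 (-0.86 ± 0.136, mean normalized count 46). Of 251 solute carrier genes, 5 rose and 8 fell (5.18%), among them Slc9a7 (-0.65 ± 0.138) and Slc9a9 (0.37 ± 0.096), which encode sodium-proton exchangers of organelles. Of 74 potassium channel genes, 2 rose and 3 fell (6.76%). Kcnma1 was at -0.50 ± 0.123, Kcnq3 at -0.50 ± 0.138 and Kcns2 at 0.37 ± 0.103. Of 112 TRIM and RNF ligase genes, 3 fell (2.68%). Among 38 ABC transporters, 4 fell (10.5%), with Abca1, the cholesterol exporter gene, at -0.58 ± 0.114. None of the 4 was called with the transcript-length trend removed. Of 60 sorting nexin and VPS genes, the lipid transfer genes Vps13c (-0.52 ± 0.110) and Vps13a (-0.43 ± 0.095) fell with Vps37a (-0.33 ± 0.072). The retromer gene Vps29 rose by 0.26 ± 0.061, as did Snx7. Kcnma1, Kcnq3, Vps13a and Vps13c were not called without the length trend. Of 46 MAP kinase genes, 4 fell, with Map3k13 (-0.42 ± 0.120) and Map3k2 (-0.41 ± 0.096) the lowest. Of 45 ubiquitin-specific protease genes, 3 fell, among them Usp9x (-0.39 ± 0.110), and Usp43 rose. Neither Usp9x nor the MAP kinase genes named here were called without that trend. None of 51 clustered protocadherins, 17 tubulins and 14 histones passed the DESeq2 test, with 4, 5 and 1 at an unadjusted p under 0.05.

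Among called genes, the 10 with the highest mean normalized counts ranged from -0.43 (Malat1) to 0.29 (Snap25). Besides Snap25, Psap, Aldoa, Pkm, Syp, Slc1a2 and Malat1, these were App, the amyloid precursor gene (0.20 ± 0.058), Atp1b1 (0.22 ± 0.069) and Calm2 (0.22 ± 0.061). Psap, at a mean normalized count of 41411, rose to 111% of wild type. With the length trend removed, Psap, App and Malat1 were still called and the other 7 were not.

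The chromosome around Grn was also examined. Within 1 Mb, 48 genes were measured, 4 rose and 3 fell (14.6% called, beside 6.8% over all genes), and the median was 0.00. Fam171a2, which starts 172 bases beyond Grn, was at -0.08 ± 0.076 and did not pass. Itga2b, 16.5 kb away, fell by 0.42 ± 0.135 at a mean normalized count of 65. Hdac5 fell by 0.31 ± 0.074 and Rundc1 by 0.18 ± 0.062. Gm11627 (0.48 ± 0.138), Meox1 (0.43 ± 0.137), Adam11 (0.26 ± 0.085) and Mpp3 (0.24 ± 0.068) rose. The mean normalized counts of Gm11627 (29.9) and Meox1 (26.2) were near the lowest of any gene (24.7). Without the length trend, Rundc1, Meox1 and Gm11627 were not called.

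**Figure D5:**
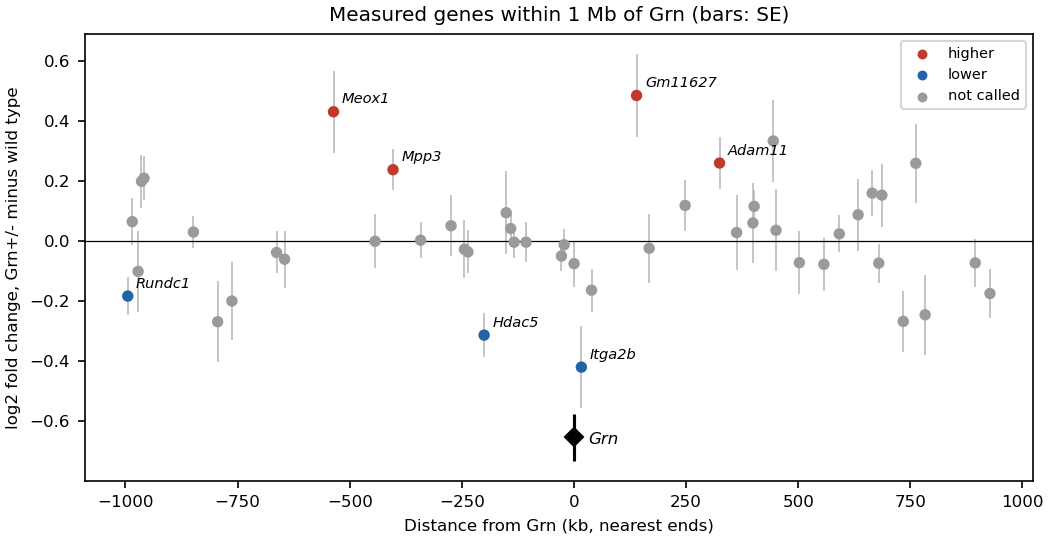
Log2 fold change of Grn+/- over wild type (y axis, bars are SE) of 48 measured genes within 1 Mb of Grn, against distance from Grn in kb (x axis). Grn (black diamond) is at -0.65, and the 7 called neighbours lie on both sides of it, 4 above 0 and 3 below.

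For some genes the value in the Grn-/-; GRNtg mice stood apart from that in Grn+/-. These comparisons share the wild-type or the Grn+/- mice, so the authors' values are given side by side. Pvrl1 was at -0.42 in Grn+/- and at 0.04 ± 0.055 in Grn-/-; GRNtg, each against wild type. Grn-/-; GRNtg against Grn+/- gave 0.46 ± 0.059 (adjusted p = 5.03e-11). For Pld5 the values were 0.45, -0.08 ± 0.138 and -0.53 ± 0.138 (adjusted p = 0.034), and for Slc9a9 0.37, -0.01 ± 0.097 and -0.38 ± 0.10 (adjusted p = 0.034). Snap25 was at 0.29 in Grn+/- and 0.01 ± 0.097 in Grn-/-; GRNtg, but their direct comparison did not pass (-0.28 ± 0.101, adjusted p = 0.25). Dok6 was at -1.05 and -0.77 ± 0.136, Prex2 at -0.73 and -0.61 ± 0.119, Xbp1 at -0.29 and -0.31 ± 0.058, and Tceal5 at 0.32 and 0.43 ± 0.065. None of these last 4 passed in the direct comparison, where Dok6 was at 0.28 ± 0.133, Prex2 at 0.11 ± 0.122, Xbp1 at -0.01 ± 0.061 and Tceal5 at 0.10 ± 0.068. These genes were chosen after their values were seen.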

How the data were processed

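Strand-specific libraries were made from the total RNA of mouse cortex, per the labels' protocols. The authors used DESeq2 1.34.0, R 4.1.2 and build mm10, per the submitters' processing notes. How reads were aligned and counted, on which annotation and strand, is not given in the sources; therefore genes that overlap or copy another are uncertain. Per the file headers, the deposited tables hold mean normalized counts (a signal averaged over libraries), a log2 fold change with its SE, a Wald statistic (a score, equal to log2 fold change over SE in every row), a p-value and an adjusted p-value. The authors' adjusted values were recovered by Benjamini-Hochberg over all rows, with the 2 that name no gene. SEs never exceeded 0.138. Depth per library is unknown. Whether fold changes were shrunk towards 0 is not stated, and if they were, the sizes and intervals above are too small.

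Genes, gene lists (50) and symbol families (46) were chosen with earlier results of these data known, so counts are descriptions. Of 1359 list entries, 1268 matched; lists and families cover 3919 genes and 289 of the 917 calls, leaving 628 in none. Named genes were Grn; the 12 higher and 12 lower called genes with the largest change at a mean normalized count of at least 100; the 10 called genes with the highest mean; up to 5 called per list by smallest adjusted p, with defining members by value; and called genes within 1 Mb of Grn. Symbols matched RefSeq GRCm38.p6 for 99.8% of genes, and GENCODE M21 gave coding transcripts for 96.9%. The motifs searched on both strands were the whole cAMP response element, TGACG (inside it), the ER stress response element, the CArG box, CACGTG and the CLEAR element (which holds CACGTG). Length trends were running medians of the Wald statistic or log2 fold change over 501 genes; genes with no coding transcript kept their deposited value. Scripts, tested on simulated data, ran on scipy 1.17.1, pandas 2.3.3 and numpy 2.4.6 under Python 3.11.15. No test could be refitted, since no values per mouse were used here. Some genes of these lists are not reported here.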

Additional observations from a re-analysis of the deposited data

How the results depend on the processing

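Counts of calls depended on the settings (917 called, 309 higher, 608 lower as deposited). At an adjusted p under 0.10 there were 1423 calls (555 higher, 868 lower) and under 0.01 there were 357 (72 and 285). With a log2 fold change of at least 0.3 there were 499 (97 and 402). The robust spread of the Wald statistic left 3 (0 and 3). With the transcript-length trend removed, an alternative chosen after seeing the data, 449 remained (196 and 253). Removing the trend over genomic span gave 759, a mean normalized count of at least 100 gave 896, adjustment without the rows that name no gene gave 916, and subtracting the median Wald statistic gave 931. None of these alternatives turned a called gene the other way. Grn was called under every one of them. Of 243 named calls, 121 were kept with the transcript-length trend removed, 188 with the span trend removed and 3 under the robust spread. Among uncalled genes near 0, Gfap went to -0.01 (-0.0051 with the span trend and -0.0057 with the transcript-length trend removed). Apoe went to -0.0083 and -0.039 under the same settings, and Trem2 to -0.0066 with the transcript-length trend removed. No paired analysis was possible because the tables hold no values per mouse. Leaving out each mouse, another normalization and another count test were not run for the same reason. Depth could not be weighed, since precision is known here from the SE alone.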
